A study of Mus musculus with 5 samples.

Results

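Among γδ T cells sorted from mouse ear skin by their Vγ4 receptor chain, the cells that carried Il17a messenger RNA were set against the cells in which none was found. Il17a-positive cells held at least 1 Il17a UMI (unique molecular identifier, the tag that marks each captured transcript), and Il17a-negative cells held 0. Of 1394 barcodes in the library, 1053 passed the filter of at least 200 genes, at most 10% mitochondrial UMIs and at least 1000 UMIs. There were 321 Il17a-positive and 732 Il17a-negative cells among them, of 6774 kept cells in all 5 libraries of the series. The cells were chosen by their Il17a counts, so the Il17a values below are a description and support nothing.

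IL-17A and IL-17F are related secreted cytokines that act on epithelial and stromal cells, which answer with chemokines that draw neutrophils and with antimicrobial proteins. In skin, γδ T cells are an early source of both cytokines. Such cells are committed to IL-17 production by transcription factors that include c-Maf, and IL-23, IL-1β and receptor signals raise the output of cells that are already committed.

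The mice of the skin Vγ4, skin Vγ6, lymph node and thymus libraries were C57BL/6, 8 weeks old, and no treatment is given for any group. Ears were digested with collagenase and DNase, cells were enriched on a density gradient, Vγ4+ cells were sorted by flow cytometry, and 1 library was made with a droplet 3′ kit. The other 4 libraries hold Vγ6+ γδ T cells of ear skin, peripheral lymph nodes, thymus and a pool of these tissues. In the pool, from mice of 8 to 10 weeks, ear skin came from TcrdH2BeGFP, thymus from ACT-FLPe and lymph node from TcrdCreER mice, and its cells are not assigned to a tissue. Il17a-positive and Il17a-negative cells share 1 library, hence 1 preparation, and how many mice gave the cells is not stated in the sources used here. T cell receptor chain genes were not analysed here, so the Vγ4 label was not checked. In the largest cluster 16 of 19 γδ T17 marker genes were detected in 10% or more of the cells. The count was also 16 in a dividing cluster, 13 in a cluster led by Gzma and 15 in the keratinocyte-like cluster described below. This count therefore does not tell the clusters apart.

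The number of UMIs per cell had a median of 1591 (range 1001 to 13200) in Il17a-positive cells and 1481 (range 1000 to 8768) in Il17a-negative cells. Median genes per cell were 769 in Il17a-positive and 738 in Il17a-negative cells, and the median mitochondrial share was 5.75% in Il17a-positive and 5.86% in Il17a-negative cells. Summed UMIs, Il17a left out, were 598958 in Il17a-positive and 1230613 in Il17a-negative cells, so that 0 UMIs of a gene allowed up to 5.01 CPM (the UMIs of a gene scaled to a common total of UMIs per side, as counts per 1e6) in Il17a-positive and 2.44 CPM in Il17a-negative cells. Skin Vγ4 shared 13 barcodes with skin Vγ6, 11 with the lymph node, 13 with the thymus and 2 with the pooled library. Among kept cells 1 Il17a-positive and 5 Il17a-negative cells had such a barcode, and leaving them out gave 16 genes higher and 9 lower by the rule below, against 17 higher and 10 lower with them.

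Il17a lies on chromosome 1 (mm10, 20730905 to 20734496, plus strand) and Il17f on the same chromosome (20777146 to 20790617, minus strand). The 250 bases before each RefSeq transcription start (GRCm38.p6, chr1:20730655-20730904 on the plus strand and chr1:20784271-20784520 on the minus strand) are shown because these are the gene that chose the cells and the called gene with the most UMIs. Capitals mark every match, on either strand, to TGANTCA (AP-1), AGGTCA (ROR half-site), GGAAAA (NFAT), TTCNNNGAA (STAT) or an NF-kB consensus.
Il17a: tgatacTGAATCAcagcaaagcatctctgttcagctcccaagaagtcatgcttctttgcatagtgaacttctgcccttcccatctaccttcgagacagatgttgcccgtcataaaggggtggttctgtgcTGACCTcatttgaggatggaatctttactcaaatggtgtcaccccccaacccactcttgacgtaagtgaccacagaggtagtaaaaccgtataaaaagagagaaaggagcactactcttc
Il17f: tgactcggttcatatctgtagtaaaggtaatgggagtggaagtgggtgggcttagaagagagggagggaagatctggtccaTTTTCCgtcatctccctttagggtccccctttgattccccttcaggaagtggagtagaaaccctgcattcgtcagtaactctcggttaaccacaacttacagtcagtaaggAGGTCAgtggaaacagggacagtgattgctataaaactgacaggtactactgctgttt
Il17a held 1 TGANTCA and 1 AGGTCA match, the AGGTCA match as its reverse complement. Il17f held 1 AGGTCA and 1 GGAAAA match and no TGANTCA. Over 32851 RefSeq promoters, counted in the same window, 6.75% held TGANTCA, 14.0% AGGTCA, 20.4% GGAAAA, 7.02% TTCNNNGAA and 3.90% the NF-kB consensus, and none of the matches overlapped another. A match is a run of letters and not a known binding site. The RefSeq start of Il17f lies inside the GENCODE M21 gene span given above.

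The 321 Il17a-positive cells, 30.5% of the kept cells (exact binomial interval 27.7 to 33.4), held 958 Il17a UMIs. A single UMI was found in 148 of them, 2 or 3 UMIs in 102, and 4 or more in 71, and the highest cell held 40. The 71 cells with 4 or more held 566 of the 958 UMIs. Cells at the edge of the rule had 1 Il17a UMI inside it and 0 outside it. The positive share was 26.0% of 511 cells with fewer than 1500 UMIs, 33.3% of 436 cells with 1500 to fewer than 2500, and 40.6% of 106 cells with 2500 or more, while Il17a in CPM was 578, 530 and 414 over the same cells. With each cell thinned to 1000 UMIs the expected share was 23.6%. A cell counted as Il17a-negative may therefore hold Il17a transcripts that were not captured. Free RNA can also place a UMI in a cell, and this was not tested. In a cluster of 42 cells led by Gzma, 7.14% (1.5 to 19.5) had an Il17a UMI at a median of 1701.5 UMIs. In the largest cluster, of 947 cells, the share was 30.8% (27.9 to 33.9) at a median of 1475. Among the 8 keratinocyte-like cells described below, a type not known for Il17a, 37.5% (8.52 to 75.5) had an Il17a UMI at a median of 6625 UMIs. Of their 8 Il17a UMIs 6 lay in 1 cell, which also held 13 Il17f and 2 Cd3 UMIs. The other cells of this cluster held 0 to 3 Il17f and 0 to 4 Cd3 UMIs each. Where the Il17a UMIs of the Gzma-led and keratinocyte-like clusters came from was not tested.

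**Figure D1:**
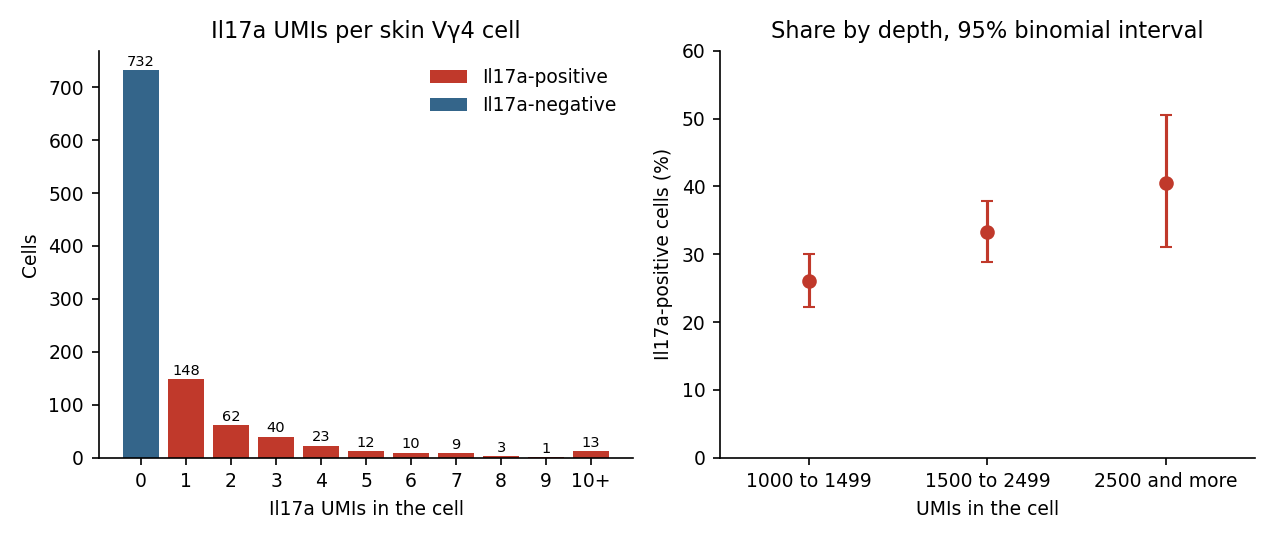
Left, the number of skin Vγ4 cells by Il17a UMIs per cell, with 321 Il17a-positive cells in red and 732 Il17a-negative cells in blue. Right, the share of Il17a-positive cells by UMIs per cell with exact 95% binomial intervals, 26.0%, 33.3% and 40.6% from the shallowest to the deepest cells.

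The comparison asks which other transcripts differ between cells of 1 sort with and without Il17a. A single library per side allows no test between animals, and cells were not used as replicates. Each gene is given as the ratio of its CPM in Il17a-positive over Il17a-negative cells with an exact conditional binomial 95% interval, which covers counting error only and not the spread between cells, mice or preparations. A gene was called when the ratio passed 1.5-fold in either direction with an interval that excluded 1, among 1346 genes with at least 100 CPM over both sides together.

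By this rule 17 genes (1.26% of those measured) were higher and 10 genes (0.743%) were lower in Il17a-positive cells, and the median log2 ratio over all measured genes was -0.0047, with 654 genes above and 692 below 1. The call was partly decided by 8 keratinocyte-like cells, a cluster led by Serpinb2, S100a8, Ly6d, Apoe, Krtdap and Lgals7. These were 3 Il17a-positive and 5 Il17a-negative cells with a median of 6625 UMIs, and they held 4.92% of the UMIs of Il17a-positive cells and 2.51% of those of Il17a-negative cells. Without them 9 genes (0.679% of 1326) were higher, namely Il17f, Areg, Cxcl2, Il2ra, Gm7120, Gm10827, Sqstm1, Jun and Bag1. Cbx3, Gzma, Lmo4, Rassf1 and Rcc2 (5 genes, 0.377%) were lower. Bag1, an Hsp70 cochaperone, is named for completing that list, after its value was seen.

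**Figure D2:**
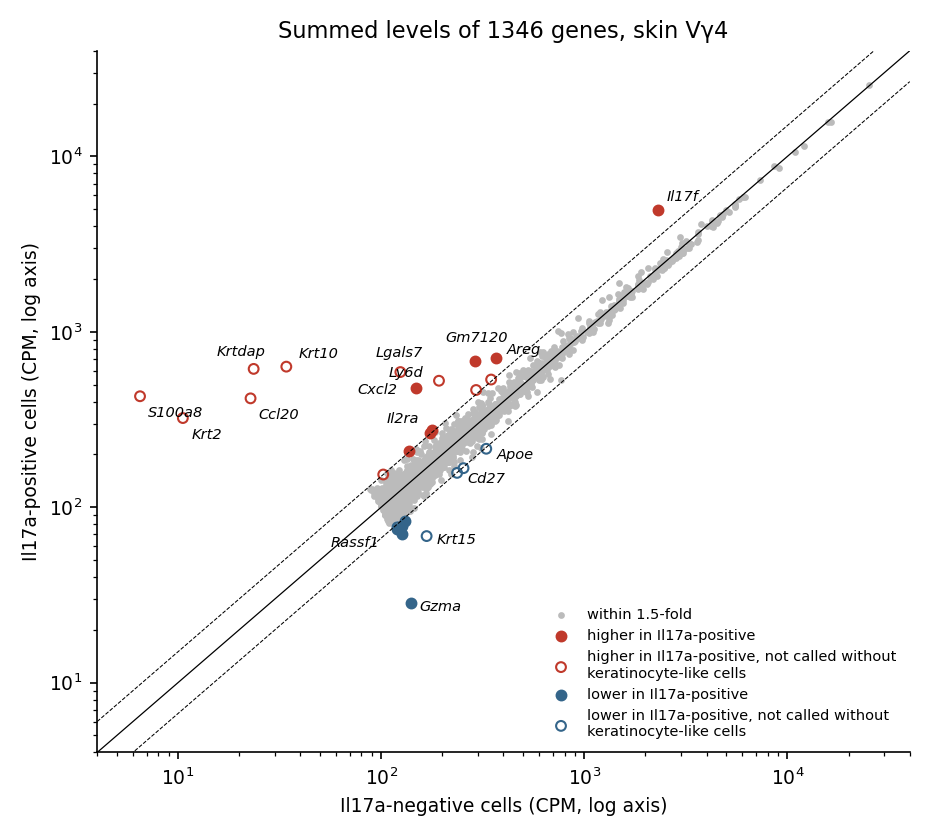
Summed level of each of 1346 measured genes in Il17a-positive cells (vertical, CPM) against Il17a-negative cells (horizontal, CPM), both on log axes, with dashed lines at 1.5-fold. Il17f at 4972 against 2308 CPM stands off the diagonal, and open circles are genes no longer called when the 8 keratinocyte-like cells are left out.

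Il17f, the closest relative of Il17a and a partner of IL-17A in a heterodimer, was higher in Il17a-positive cells. A median of 4 Il17f UMIs per cell (highest 75) was found in Il17a-positive cells, against a median of 1 (highest 45) in Il17a-negative cells, so the sides overlapped. Il17f had 4972 CPM in Il17a-positive and 2308 CPM in Il17a-negative cells, a ratio of 2.15 (2.05 to 2.27). Its level was higher at each step of Il17a, with 2308 CPM at 0 Il17a UMIs, 3506 at 1, 4334 at 2 or 3 and 8934 at 4 or more. The ratio was 2.28 when every cell was weighted equally and 2.20 without the keratinocyte-like cells. Among cells of fewer than 1500, 1500 to fewer than 2500, and at least 2500 UMIs it was 2.49, 2.24 and 1.64.

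Co-detection of the pair was common but not complete. Both transcripts were found in 268 cells, Il17a alone in 53, Il17f alone in 471 and neither in 261. In other words 83.5% of Il17a-positive and 64.3% of Il17a-negative cells had an Il17f UMI, and at 1000 UMIs per cell the expected shares were 76.8% of Il17a-positive and 55.5% of Il17a-negative cells. Of the 42 cells of the Gzma-led cluster 28.6% had an Il17f UMI at a median of 1701.5 UMIs, with 166 CPM, against 3610 CPM in the largest cluster.

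The partner cytokines were too sparse to call. Il22, which acts on keratinocytes, had 16 UMIs in Il17a-positive and 13 in Il17a-negative cells, a ratio of 2.53 (1.14 to 5.71), and 7 of the 16 came from 1 cell. Tnf, a general inflammatory cytokine, had 90.2 CPM in Il17a-positive and 94.3 CPM in Il17a-negative cells. Il21, Il17c and Il17d had 0 UMIs in both sides, as did Ifng, the type 1 cytokine, which bounds each at 5.01 CPM in Il17a-positive and 2.44 CPM in Il17a-negative cells. Of the list of IL-17 family and partner cytokines, 1 of 9 genes in the matrix reached the minimum level.

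Areg encodes amphiregulin, a ligand of the epidermal growth factor receptor that is linked to tissue repair. It had 710 CPM in Il17a-positive and 369 CPM in Il17a-negative cells, a ratio of 1.92 (1.68 to 2.20). The median cell of either side held 0 Areg UMIs, the highest held 25 in Il17a-positive and 20 in Il17a-negative cells, and 34.6% of Il17a-positive and 25.5% of Il17a-negative cells had one. By Il17a UMIs per cell its level was 369 CPM at 0, 601 at 1, 654 at 2 or 3 and 1015 at 4 or more. The ratio was 1.84 with equal weights and 1.96 without the keratinocyte-like cells. It fell short of a call at 1.45 (1.18 to 1.77) with counts thinned to 1000 UMIs per cell and at 1.42 (1.07 to 1.88) in cells with fewer than 1500 UMIs.

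Il2ra, the α chain of the IL-2 receptor and a gene of activated T cells, had 277 CPM in Il17a-positive and 179 CPM in Il17a-negative cells, a ratio of 1.55 (1.26 to 1.91). That call lay close to the line and was lost with thinned counts (1.37, 1.03 to 1.81), with 2 or more Il17a UMIs as the positive class (1.49, 1.14 to 1.92), in cells with fewer than 1500 UMIs (1.39, 0.972 to 1.97) and in those with at least 2500 (1.58, 0.885 to 2.85). No step with Il17a was seen within the positive cells, at 290, 242 and 299 CPM for 1, 2 or 3, and 4 or more UMIs, against 179 at 0. Areg and Il2ra were the 2 members called higher of 12 measured genes on the activation and checkpoint list, whose median log2 ratio was 0.16, beside 1.26% of all measured genes called higher, and none was called lower. Furin, the protease that cleaves proproteins such as that of TGF-β, had 1902 CPM in Il17a-positive and 1481 CPM in Il17a-negative cells, a ratio of 1.28 (1.19 to 1.38) that stayed under the 1.5-fold line. Icos, a costimulatory receptor, had 222 CPM in Il17a-positive and 295 CPM in Il17a-negative cells (ratio 0.753, 0.612 to 0.921), also short of a call.

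**Figure D3:**
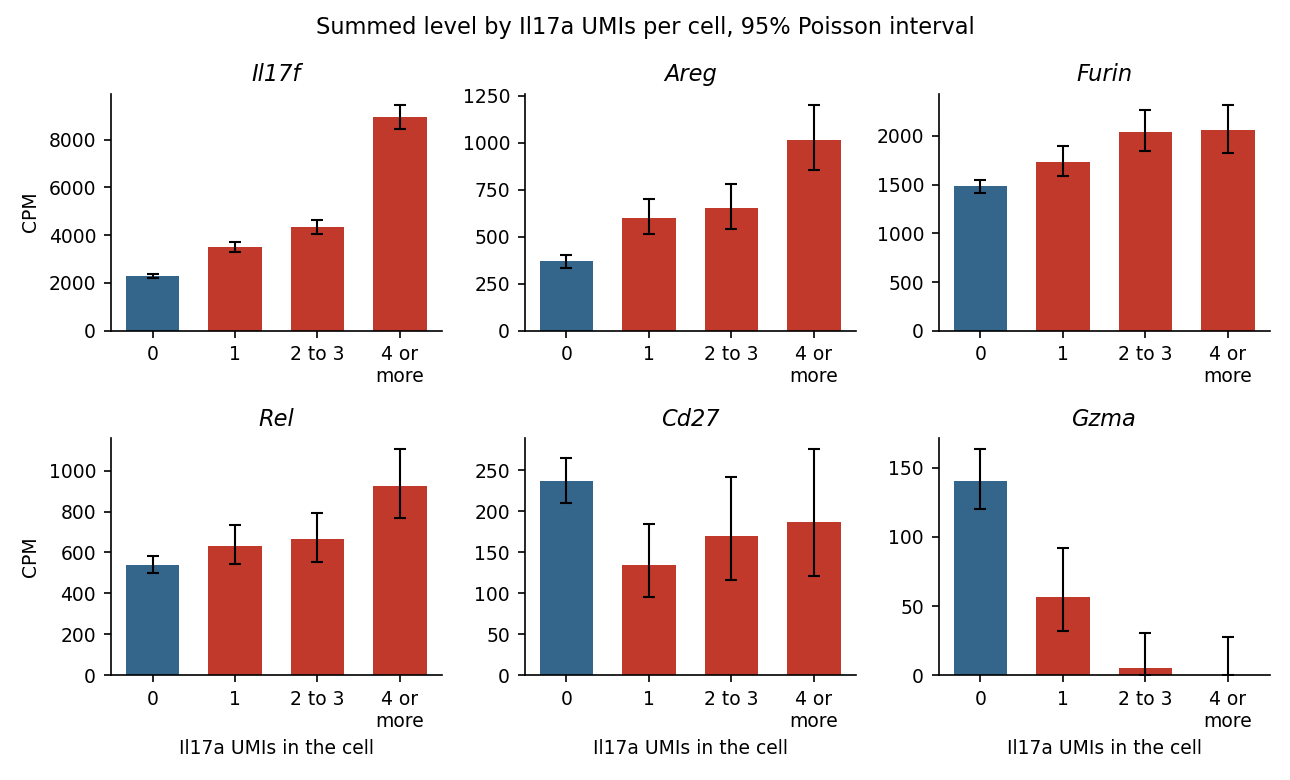
Summed CPM of 6 genes in cells with 0 (blue) and with 1, 2 to 3, and 4 or more (red) Il17a UMIs, with exact 95% Poisson intervals. Il17f is higher at each step, at 8934 CPM in the last class, and Areg is highest in the last class, at 1015 CPM. Cd27 is highest at 0 Il17a UMIs, at 236 CPM, but does not fall step by step, with 134, 170 and 187 CPM in the later classes. Gzma has 0 UMIs in the last class.

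Of 10 listed secreted chemokines 2 were measured, and both were called higher, beside 1.26% of all measured genes. Ccl20 reached the minimum level only through Il17a-positive cells, so this count supports nothing about the list. Both calls involved the keratinocyte-like cells. Cxcl2, which attracts neutrophils, had 477 CPM in Il17a-positive and 148 CPM in Il17a-negative cells, a ratio of 3.23 (2.67 to 3.91). Of its 286 UMIs in Il17a-positive cells 86 came from keratinocyte-like cells, and without these the ratio was 2.32 (1.88 to 2.85). By Il17a UMIs its level had no steady order, with 148 CPM at 0, 505 at 1, 198 at 2 or 3 and 799 at 4 or more. Ccl20, the ligand of CCR6, had 417 CPM in Il17a-positive and 22.8 CPM in Il17a-negative cells, but 169 of its 250 UMIs in Il17a-positive cells came from 1 keratinocyte-like cell and 240 from those cells together. Without them Ccl20 was below the minimum level, with a ratio of 1.40.

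The other genes carried by the keratinocyte-like cells included epidermal and inflammatory genes. Krt10, a keratin of differentiated epidermis, had 633 CPM in Il17a-positive and 34.1 CPM in Il17a-negative cells, with 349 of 379 UMIs of Il17a-positive cells in 1 cell. S100a8, an alarmin subunit, had 257 UMIs in Il17a-positive cells, 253 of them in 1 cell, and 8 in Il17a-negative cells, and its ratio was 0.790 without the keratinocyte-like cells. Krtdap, Krt2, Lgals7, Ly6d, Sfn and Anxa1 were also called higher with these cells and not without them. Krt15, a basal keratin, and Apoe were called lower with them and not without them. Krt10, S100a8, Krtdap and Krt2 reached the minimum level only through Il17a-positive cells, and Krt15 only through Il17a-negative cells. A pair of Il17a-positive keratinocyte-like cells had 13200 and 12175 UMIs and held 1 Il17a UMI each. The 10 keratinocyte markers summed to 2581 CPM in Il17a-positive and 1061 CPM in Il17a-negative cells, and without the keratinocyte-like cells to 372 CPM in Il17a-positive and 311 CPM in Il17a-negative cells, with Krt1 at 0 in both. The 5 neutrophil markers, S100a8 among them, summed to 619 CPM in Il17a-positive and 31.7 CPM in Il17a-negative cells, and without those cells to 40.4 CPM in Il17a-positive and 32.5 CPM in Il17a-negative cells, with Ly6g and Retnlg at 0.

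**Figure D4:**
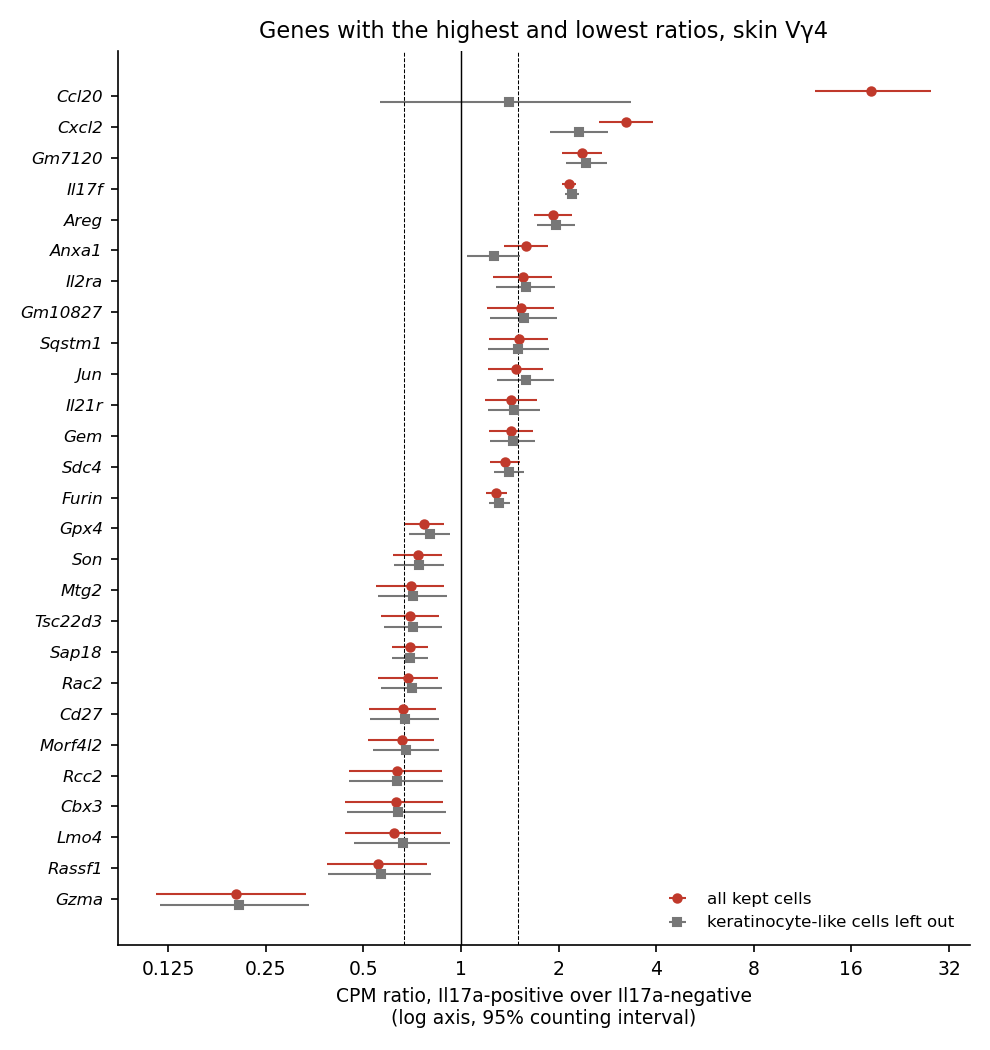
CPM ratio of Il17a-positive over Il17a-negative cells (log axis, 95% counting interval) for the named genes with the highest and lowest ratios, in all kept cells (red circles) and without the 8 keratinocyte-like cells (grey squares). Ccl20 drops to 1.40 without these cells, whereas Il17f keeps a ratio of 2.20 and Areg of 1.96.

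Gm7120, a gene of chromosome 13 (119488039 to 119611059), had 681 CPM in Il17a-positive and 288 CPM in Il17a-negative cells, a ratio of 2.36 (2.04 to 2.73). A single Il17a-positive cell held 160 of the 408 UMIs, and with the top cell of each gene left out the ratio was 1.44, short of a call. Gm10827 had 209 CPM in Il17a-positive and 137 CPM in Il17a-negative cells (ratio 1.53), and 1.27 without its top cell. Sqstm1, the autophagy receptor p62, had 264 CPM in Il17a-positive and 175 CPM in Il17a-negative cells (ratio 1.51) and 1.45 without its top cell, and Hnrnph2, a splicing factor, had 154 CPM in Il17a-positive and 102 CPM in Il17a-negative cells (ratio 1.5, and 1.49 without the keratinocyte-like cells). Il17f, Areg, Cxcl2 and Il2ra kept their calls without the top cell. On the other strand Sqstm1 overlaps Mrnip, and whether the authors' counting used strand is not stated in the sources used here.

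No measured transcription factor, inducing receptor or surface gene of IL-17 committed cells was called. With 1.26% of all measured genes called higher and 0.743% lower, 0 calls in lists of this size is near the share over all genes and is not read as a result about them. Of 9 measured members of 19 type 17 transcription factors, 0 were called, and the median log2 ratio was -0.08. Rora, a ROR family factor, had 683 CPM in Il17a-positive and 587 CPM in Il17a-negative cells (1.16, 1.03 to 1.32), and Maf had 571 CPM in Il17a-positive and 518 CPM in Il17a-negative cells (1.10, 0.963 to 1.26). Blk, a kinase of these cells, had a ratio of 0.997 (0.777 to 1.27).

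A list of receptors, drawn up for those that induce IL-17 but also holding Ifngr1 and Il17ra, gave 0 calls among 8 measured genes. Its median log2 ratio was 0.17. Il23r, the IL-23 receptor, had 207 CPM in Il17a-positive and 175 CPM in Il17a-negative cells (1.18, 0.942 to 1.48). Il21r, the IL-21 receptor, had 334 CPM in Il17a-positive and 233 CPM in Il17a-negative cells (1.43, 1.19 to 1.72), and Ifngr1 had 1127 CPM in Il17a-positive and 1312 CPM in Il17a-negative cells (0.859, 0.784 to 0.940). Among 13 measured surface genes of γδ T17 cells 0 were called. The scavenger receptor gene Cd163l1 had 132 CPM in Il17a-positive and 161 CPM in Il17a-negative cells (0.820, 0.623 to 1.07), its relative 5830411N06Rik had 381 CPM in Il17a-positive and 390 CPM in Il17a-negative cells (0.976, 0.830 to 1.14), and the chemokine receptor Cxcr6 had 1796 CPM in Il17a-positive and 1601 CPM in Il17a-negative cells (1.12, 1.04 to 1.21).

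Signal-induced genes gave no call in all kept cells, where 1.26% of measured genes were called higher. Of 22 measured immediate early genes 0 were called, with 15 above and 7 below 1 and a median log2 ratio of 0.09. Jun, a subunit of AP-1, had 304 CPM in Il17a-positive and 206 CPM in Il17a-negative cells (1.48, 1.21 to 1.80), and passed the line at 1.59 without the keratinocyte-like cells. Fos, its partner, went the other way at 352 CPM in Il17a-positive and 419 CPM in Il17a-negative cells (0.840, 0.712 to 0.988). Of 11 measured NF-κB targets and regulators 0 were called (median log2 0.13). Rel, the subunit c-Rel, had 708 CPM in Il17a-positive and 541 CPM in Il17a-negative cells (1.31, 1.16 to 1.48), and by Il17a UMIs it had 541 CPM at 0, 633 at 1, 665 at 2 or 3 and 925 at 4 or more. Bcl2a1d, an antiapoptotic Bcl2 relative, had 1202 CPM in Il17a-positive and 934 CPM in Il17a-negative cells (1.29, 1.17 to 1.41), but reads of the near-identical Bcl2a1 copies may be split between them.

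No list on secretion, stress, the cell cycle or survival gave a call, which again is near the 1.26% higher and 0.743% lower over all measured genes. Those were 14 secretory and endoplasmic reticulum genes (median log2 0.00), 9 heat shock genes (-0.09), 5 cell cycle genes (0.11), 9 glycolysis and hypoxia genes (-0.06), 5 Bcl2 family genes (0.01), 9 T cell receptor complex and kinase genes (-0.04), 5 tissue residency genes (0.02) and 7 feedback regulators (0.05). Hspa5, the chaperone BiP, had 2865 CPM in Il17a-positive and 2563 CPM in Il17a-negative cells (1.12, 1.05 to 1.19). The dividing cluster of 56 cells had 23 Il17a-positive members (41.1%, 28.1 to 55.0) at a median of 3194.5 UMIs, in the depth range where the positive share was highest. The cluster was 7.17% of Il17a-positive and 4.51% of Il17a-negative cells. Type I interferon response and lipid handling genes had 0 members at the minimum level.

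On the lower side, Gzma, the protease granzyme A of cytotoxic cells, had 28.4 CPM in Il17a-positive and 141 CPM in Il17a-negative cells, a ratio of 0.202 (0.115 to 0.333). It was found in 1.87% of Il17a-positive and 3.69% of Il17a-negative cells. The Gzma-led cluster of 42 cells, 3 Il17a-positive and 39 Il17a-negative, held 13 of 17 UMIs of Il17a-positive cells and 165 of 173 of Il17a-negative cells. That cluster was also led by Plac8, Gimap6, Sox4 and Cd24a, and it made up 0.935% of Il17a-positive and 5.33% of Il17a-negative cells. Within the largest cluster the Gzma ratio was 1.40, from UMIs below the minimum level. The 12 IFN-γ type or cytotoxic markers, Gzma among them, summed to 85.1 CPM in Il17a-positive and 218 CPM in Il17a-negative cells, with Ifng, Tbx21, Eomes, Klrb1c and Ncr1 at 0 in both. Gzma gave 17 of the 51 UMIs of this sum in Il17a-positive and 173 of the 268 in Il17a-negative cells. Gzmb, below the minimum level, had a ratio of 0.707 (0.409 to 1.18). Gzma was the 1 called gene of 3 measured on the list of interferon-γ type and cytotoxic genes, beside 0.743% of all measured genes called lower. It reached the minimum level only through Il17a-negative cells, so this count supports nothing about the list. The other measured members, Klrk1 and Il2rb, were not called.

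Cd27, a costimulatory receptor that marks γδ T cells outside the IL-17 lineage in mice, had 157 CPM in Il17a-positive and 236 CPM in Il17a-negative cells, a ratio of 0.664 (0.520 to 0.840). Cd27 was found in 24.3% of Il17a-positive and 30.1% of Il17a-negative cells, so most cells of either side had no UMI. Without the keratinocyte-like cells the ratio was 0.673, just short of a call, and within the largest cluster it was 0.736 (0.566 to 0.951) and not called. Of the 291 Cd27 UMIs of Il17a-negative cells 46 lay in the Gzma-led cluster. Cd27 was the 1 called gene of 3 measured circulation and naive-type genes, beside 0.743% of all measured genes, with Klf2 at 0.874 and Satb1 at 0.848. Cd27 overlaps Vamp1 on the other strand.

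A further 6 genes were called lower besides Gzma, Cd27 and those carried by the keratinocyte-like cells. All but Morf4l2 were under 100 CPM in Il17a-positive cells and reached the minimum level only through Il17a-negative cells. Rassf1, a tumour suppressor, had 70.1 CPM in Il17a-positive and 126 CPM in Il17a-negative cells (0.557, 0.386 to 0.787). Lmo4, a transcriptional cofactor, had 78.5 CPM in Il17a-positive and 126 CPM in Il17a-negative cells (0.623, 0.440 to 0.869), and Cbx3, a heterochromatin protein, had 75.1 CPM in Il17a-positive and 119 CPM in Il17a-negative cells (0.629, 0.440 to 0.884). Rcc2 had a ratio of 0.634, Cebpz of 0.639 and Morf4l2 of 0.656, of which Cebpz (0.668) and Morf4l2 (0.679) were short of a call without the keratinocyte-like cells. Of the 313 Morf4l2 UMIs of Il17a-negative cells 103 lay in the Gzma-led cluster, and within the largest cluster its ratio was 0.897. Tsc22d3, the glucocorticoid-induced gene GILZ, had 217 CPM in Il17a-positive and 311 CPM in Il17a-negative cells (0.697, 0.567 to 0.853) and was not called.

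The same contrast in other libraries was set beside it, each library on its own and with no test of the difference. The pool mixes tissues and strains, so in it Il17a status and tissue cannot be told apart. In skin Vγ6, 97 of 390 kept cells (24.9%) were Il17a-positive, and in pooled Vγ6 cells 201 of 1431 (14.0%), against 4.75% of thymus and 1.92% of lymph node Vγ6 cells. By the same rule 46 genes (3.26% of 1410) were higher and 37 (2.62%) lower in skin Vγ6, and 60 (3.8% of 1580) higher and 78 (4.94%) lower in the pool. The Il17a-positive side was smaller in both, with 97 and 201 cells against 321 in skin Vγ4. Kept skin Vγ6 cells held 557775 UMIs against 1830529 in skin Vγ4. Counting error was thus larger, and these shares are not compared between libraries. Il17f had a ratio of 2.15 (2.05 to 2.27) in skin Vγ4, 7.95 (6.70 to 9.47) in skin Vγ6 and 10.4 (8.68 to 12.4) in the pool. In skin Vγ6 it had 3506 CPM in Il17a-positive and 441 CPM in Il17a-negative cells, and in the pool 955 CPM in Il17a-positive and 92.1 CPM in Il17a-negative cells.

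Areg was called in each of the 3 libraries, with ratios of 1.92 (1.68 to 2.20) in skin Vγ4, 3.39 (2.72 to 4.23) in skin Vγ6 and 2.21 (1.81 to 2.70) in the pool. Il2ra had 1.55 in skin Vγ4, 1.39 in skin Vγ6 and 2.04 in the pool. Sdc4, a heparan sulphate proteoglycan, had 1.37 in skin Vγ4, 1.64 in skin Vγ6 and 1.91 in the pool. Cxcl2 had 3.23 in skin Vγ4 (2.32 without the keratinocyte-like cells), 1.13 (0.878 to 1.45) in skin Vγ6 and 2.39 in the pool. Further genes lay on different sides of 1. Il22 had 2.53 in skin Vγ4 from 29 UMIs, 0.333 (0.161 to 0.623) in skin Vγ6 and 1.68 (1.40 to 2.00) in the pool. Stmn1, a gene of dividing cells, had 1.27 (1.09 to 1.48) in skin Vγ4, 0.478 (0.320 to 0.693) in skin Vγ6 and 0.457 (0.366 to 0.566) in the pool. Cd27 had 0.664 in skin Vγ4, 1.15 (0.639 to 2.00) in skin Vγ6 and 0.273 (0.139 to 0.484) in the pool.

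**Figure D5:**
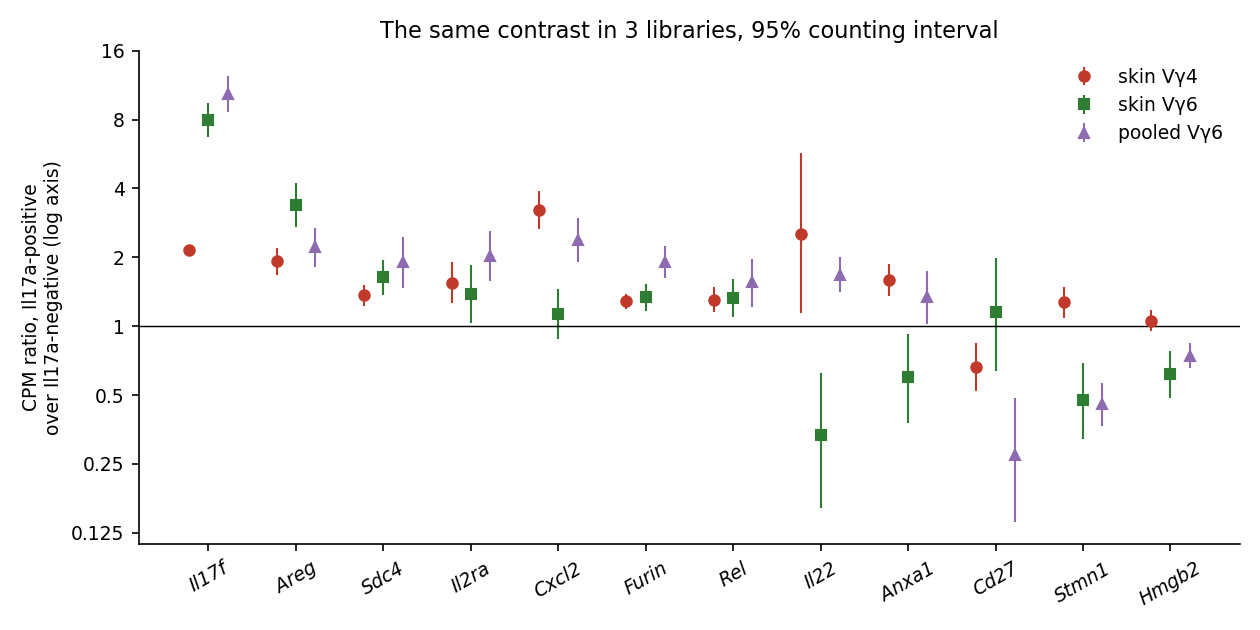
CPM ratio of Il17a-positive over Il17a-negative cells (log axis, 95% counting interval) for 12 genes in skin Vγ4 (red), skin Vγ6 (green) and pooled Vγ6 cells (purple). Il17f is above 1 in each library, at 2.15, 7.95 and 10.4, while Il22 is above 1 in skin Vγ4 and in the pool and at 0.333 in skin Vγ6. The skin Vγ4 values include the keratinocyte-like cells.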

How the data were processed

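Per the labels, each library was made with a droplet 3′ kit, and the authors deposited raw UMI counts per gene and barcode, with no normalization. The submitters' processing notes list Cell Ranger 2.0, Seurat 2.3 and mm10 with no role given. The authors' tables of Vγ6 clusters were not used here. Counts were summed over Il17a-positive and over Il17a-negative cells, Il17a left out of the totals, and given as CPM with Poisson, conditional binomial or Clopper-Pearson 95% intervals, computed with NumPy 2.4.6 and SciPy 1.17.1. Cells were clustered without Il17a with scanpy 1.11.5, at a resolution of 0.5, and names came from marker lists. Scrublet called 7 doublets, 3 Il17a-positive and 4 Il17a-negative cells, which were kept. The scripts were checked on simulated counts.

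The members, the 20 gene lists and the tests were chosen with earlier results of these data known. Named were the 12 genes with the highest and 12 with the lowest ratio, by the interval bound nearest 1, detected in 10% or more of the cells of the higher side, leaving out mitochondrial and ribosomal genes and other cell types' markers. Up to 4 genes of each list and 10 genes of interest, 1 of them not reported here, were added, and 11 further called genes (Hnrnph2, S100a8, Sfn, Apoe, Lgals7, Krtdap, Krt10, Krt15, Ly6d, Krt2 and Cebpz) were named after their values were seen. Of 26 alternatives, 5 were chosen after seeing the data. These left out the keratinocyte-like cells, without and with equal weights, all but the largest cluster, barcodes shared between libraries, or for each gene the UMIs of its top cell. Gene positions are from GENCODE M21 (all 98 named genes matched) and promoters from RefSeq.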

Additional observations from a re-analysis of the deposited data

Results flagged for a closer look

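Anxa1, a phospholipid-binding protein, was called higher in Il17a-positive skin Vγ4 cells (ratio 1.59) and lower in Il17a-positive skin Vγ6 cells (ratio 0.600, 0.378 to 0.921), and this difference between libraries was not tested. Without the keratinocyte-like cells the skin Vγ4 ratio of Anxa1 was 1.26.

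Sfn, an epidermal 14-3-3 protein, likewise had a ratio of 1.54 in skin Vγ4 and 0.612 (0.358 to 0.999) in skin Vγ6, a difference that was not tested either. Without the keratinocyte-like cells the skin Vγ4 ratio of Sfn was 1.27.

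Il17a was also present in the 341 skin Vγ4 barcodes that the filter left out, at 489 CPM (410 to 579), from 135 of 276096 UMIs. In these barcodes, 61 Il17a-positive and 280 Il17a-negative, Il17f had a ratio of 1.80 (1.45 to 2.22), Areg of 1.84 (1.15 to 2.92) and Cxcl2 of 2.15 (1.28 to 3.59).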

How the results depend on the processing

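No paired analysis was possible because both sides come from 1 library with no replicates. Against 17 genes higher and 10 lower in all kept cells, the counts stayed within 1.5 times under TMM and median-of-ratios scaling, Il17a left in the totals, no UMI minimum, doublets left out, shared barcodes left out and calls without the interval. Thinned counts gave 21 higher and 15 lower, among them only 5 of the 17 and 2 of the 10 genes. For 1 UMI as the whole positive class they were 31 higher and 21 lower, and for 2 or more UMIs 26 were lower. Against cells without Il17a and Il17f, 51 were higher and 21 lower. By depth, 30 were higher and 27 lower at fewer than 1500 UMIs, 32 and 20 at 1500 to fewer than 2500, and 65 and 44 at 2500 or more. At most 5% mitochondrial UMIs gave 73 and 55. A minimum of 50 CPM gave 40 and 33, one of 200 CPM 3 lower, and none 234 and 180. Calls at 2-fold were 10 and 2. Equal weights gave 11 and 6, and the largest cluster 11 and 6. T cell clusters, here without the dividing and the keratinocyte-like clusters, gave 6 lower. No keratinocyte-like cells gave 9 and 5, those with equal weights 11 and 5, and no top cell 7 higher.

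Of the named genes' ratios under the alternatives, 1610 stayed within their interval, 296 moved and 31 changed side, and the cause was not tested beyond what each alternative leaves out. With thinned counts these were Lmo4 1.001, Ccl20 0.380, S100a8 0, Sfn 0.746, Lgals7 0.753, Krtdap 0.517, Krt10 0.917, Krt2 0.144 and Ly6d 0.646. At 2 or more Il17a UMIs they were S100a8 0.974, Sfn 0.655, Lgals7 0.764 and Ly6d 0.575. Without the top cell they were Sfn 0.936, Ly6d 0.876 and Apoe 1.13. Apoe was also at 1.04 for exactly 1 UMI and 1.18 at 5% mitochondrial UMIs. S100a8 had 0.469 at fewer than 1500 and 0.995 at 1500 to fewer than 2500 UMIs, 0.837 in T cell clusters, 0.790 without keratinocyte-like cells, 0.639 with equal weights too, and 0.788 in the largest cluster. Krt15 had 1.79 at 1500 to fewer than 2500 UMIs, 1.28 in T cell clusters, 1.10 without keratinocyte-like cells, 1.23 with equal weights too, and 1.40 in the largest cluster. Gzma had 1.40 in the largest cluster and Gm10827 0.95 at 2500 or more UMIs. Of the alternatives that give a new ratio (20 for Areg, Cxcl2 and Il2ra, 19 for Il17f), none took these genes to the other side of 1, but Areg was past the line in 18 and Il2ra in 16. Depth limits low genes: Il22 had 16 UMIs in Il17a-positive and 13 in Il17a-negative cells.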
